A study of Mus musculus with 3 samples.

Results

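Eya1, Mef2c, Myb, Bcl11a and Mecom are regulators of blood progenitors at which the fusion protein NUP98-HOXD13 had peaks in vehicle-treated mouse leukaemia cells. The 5 genes were selected on the peak lists themselves, as genes with a peak in the DMSO list and none in the VTP50469 list, so their presence and absence is a description and not a finding. All peaks were taken whose summit lay in a gene's RefSeq span or within 10 kb of it. This gave 7 of the 613 DMSO peaks on chromosomes 1 to 19, X and Y, and 0 of the 400 VTP50469 peaks.

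The cells, a NUP98-HOXD13 leukaemia line grown with mouse IL-3, IL-6 and SCF, carried the fusion in biotinylated form, and the DNA crosslinked to it was recovered on streptavidin beads. Each pull-down library came from cells kept for 96 h with either the solvent DMSO or 2 µM VTP50469. There was 1 library per treatment, both in the same line, and a DMSO input library that was not analysed here as a file. No replicate exists, so every difference is between 2 libraries and no test across samples was possible. The sources used here give neither the number of clones behind the line nor the promoter that drives the fusion.

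NUP98 fusions join the N-terminal repeats of a nuclear pore protein to a partner, here the DNA-binding homeodomain protein HOXD13, and they are known for keeping homeobox and progenitor genes active in leukaemia. Menin is an adaptor that ties the methyltransferase MLL to chromatin, and VTP50469 occupies the menin pocket that MLL binds. EYA1 is a coactivator and phosphatase that works with homeodomain partners of the sine oculis family, MEF2C is a MADS-box factor, and MYB is a DNA-binding factor required for progenitor self-renewal. BCL11A is a zinc finger repressor of fetal globin genes, and MECOM is a zinc finger regulator of blood stem cells with long and short forms made from separate starts.

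Starts and strands came from the RefSeq promoter table (GRCm38.p6), which held 4 of the 5 genes and not Eya1. Among the 4 genes with starts there, the Mecom and Mef2c peaks were the ones within 10 kb of a start, so the bases before those starts are shown. The distance of the 3 Eya1 peaks from a start could not be measured this way. Each window is the 250 bases before that start, 5′ to 3′ on the gene's strand. Capitals mark TAAT, the core read by many homeodomains, on either strand, and TGACAG, the core of MEIS-type factors, on either strand.

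Mecom, chr3:30013205-30013454, minus strand: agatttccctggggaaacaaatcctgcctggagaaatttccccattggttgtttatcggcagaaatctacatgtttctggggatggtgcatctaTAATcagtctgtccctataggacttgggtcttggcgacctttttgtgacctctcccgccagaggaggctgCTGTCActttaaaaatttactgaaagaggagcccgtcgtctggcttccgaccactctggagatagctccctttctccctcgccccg

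Mef2c, chr13:83523406-83523655, plus strand: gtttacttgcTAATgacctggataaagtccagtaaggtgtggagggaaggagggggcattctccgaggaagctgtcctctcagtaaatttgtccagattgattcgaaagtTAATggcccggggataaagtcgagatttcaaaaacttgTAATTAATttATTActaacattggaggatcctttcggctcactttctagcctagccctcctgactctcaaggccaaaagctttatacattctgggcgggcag

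The Mecom window held 1 TAAT core and 1 TGACAG core, read as CTGTCA, and the Mef2c window held 6 TAAT cores counted on both strands with overlaps (TAATTAAT counts as 3). TAAT or its reverse complement ATTA stood in 54.9% of all 32851 promoter windows of this length, and TGACAG or CTGTCA in 15.9%. These shares count windows with at least 1 match, so they do not show whether 6 matches are unusual. TAAT was added to the motifs after the windows had been seen. The other motifs searched on both strands were CCAATAAA, which overlaps TTTATTG on the opposite strand, TTTATTG itself, and TGATTTAT. They were in 0 windows of Mef2c, Myb, Bcl11a and Mecom, and in 1.02%, 4.20% and 0.837% of all windows. The base composition of the starts differed widely: G and C made up 33.6% to 49.6% of the 3 Mef2c windows, 50.4% and 50.8% of the 2 Mecom windows, 62.0% at Bcl11a and 81.2% at Myb. No member peak overlapped any of these windows, and the sequence under the peaks was not used here.

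All 7 summits lay inside the gene spans, so the 10 kb flank added none. Beyond it, the next DMSO peak was 41.2 kb from Myb and 2356 kb or more from the spans of the other 4 genes. Their fold enrichment over the authors' background ran from 5.38 to 11.0 with a median of 6.89, against a median of 7.64 for all 613 DMSO peaks and of 6.89 for the 308 that overlapped no VTP50469 peak. Their widths ran from 252 to 381 bp with a median of 283 bp, against 350 bp in the whole list and 308 bp in the peaks without overlap.

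Eya1 was the gene with several peaks. Its span covers chr1:14168953-14311035 (142 kb), and no other annotated gene of any type covered the summits. The peaks crowded toward the upper-coordinate end. The strongest, at chr1:14306024-14306378 (355 bp), had a fold of 11.0 and a −log10 q of 20.4, with its summit 4.81 kb inside that end. A weaker peak at chr1:14301759-14302010 (252 bp) had a fold of 6.35 and a −log10 q of 7.97, and its summit was 4.34 kb from the first. The third, at chr1:14269348-14269600 (253 bp), lay 32.3 kb further in and had a fold of 5.38 and a −log10 q of 3.80. The 3 Eya1 peaks included both the strongest and the weakest of the 7. The nearest VTP50469 interval was chr1:7548243-7548536, 6721 kb or more away and 374758 bp from Pcmtd1, with a fold of 12.9. The flanking genes Xkr9 (467 kb away) and Msc (442 kb away) had 0 DMSO peaks.

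At Mef2c, whose span covers chr13:83504017-83667079 (163 kb), the peak at chr13:83528732-83529112 was the widest of the 7 at 381 bp. It had a fold of 8.22 and a −log10 q of 12.4. Of the 3 Mef2c starts in the table, the nearest was the second, at position 83523656, and the summit lay 5.22 kb downstream of it on the plus strand. The first start was 24.8 kb away and the third 44.7 kb. The nearest VTP50469 interval, chr13:86764020-86764373 with a fold of 6.37, was 3235 kb from the summit and 717365 bp from Cox7c, and it overlapped no DMSO peak. The neighbouring genes Cetn3 (1707 kb away) and Tmem161b (555 kb away) had 0 DMSO peaks.

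At Bcl11a, whose span covers chr11:24076564-24173558 (97.0 kb), the peak at chr11:24099401-24099683 (283 bp) had the second highest fold of the 7, 9.29, with a −log10 q of 13.4. Its summit was 18.8 kb downstream of the start at position 24080695 on the plus strand. The nearest VTP50469 interval, chr11:25664164-25664452 with a fold of 6.53, lay 1565 kb away and 722748 bp from Fancl, the DNA-repair ubiquitin ligase gene on the upper side of Bcl11a. Neither Fancl nor Papolg, the gene on the lower side 181 kb away, had a DMSO peak (0 each).

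Mecom has the longest span of the 5, 558 kb at chr3:29951296-30509759, and the lowest fold apart from the weakest Eya1 peak. The peak at chr3:30010024-30010303 (280 bp) had a fold of 5.50 and a −log10 q of 5.37. It lay near the internal start: the summit was 3.08 kb downstream of position 30013204 on the minus strand, while the first start, at 30509759, was 499.6 kb away. The nearest VTP50469 interval, chr3:22045906-22046212 with a fold of 8.45, was 7964 kb away and 30152 bp from Tbl1xr1, and it overlapped a DMSO peak there. Egfem1 (260 kb away) and Actrt3 (87.3 kb away), the genes on either side, had 0 DMSO peaks.

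Myb differed from the other 4 genes in having a peak of both lists nearby. Inside the gene (chr10:21124930-21160984, 36.1 kb, minus strand), the peak at chr10:21131053-21131390 (338 bp) had a fold of 6.89 and a −log10 q of 6.71. Its summit was 29.7 kb downstream of the start and 6.33 kb inside the end of the gene. Beyond that end, between Myb and the ciliary gene Ahi1, which run toward each other, a stronger DMSO peak stood at chr10:21083575-21083939 (365 bp). It had a fold of 12.0 and a −log10 q of 20.9, with its summit 41.2 kb from Myb and 3.33 kb from Ahi1. A VTP50469 peak at chr10:21083627-21083866 (240 bp) had its summit 18 bp away, with a fold of 7.65 and a −log10 q of 8.84 in its own list. The 2 DMSO summits were 47.5 kb apart. Widening the flank to 50 kb therefore gave Myb 2 DMSO peaks and 1 VTP50469 peak, and the description "DMSO alone" held for the peak in the gene but not for the wider locus. At that width the other 4 genes had 0 VTP50469 peaks. Hbs1l, the gene on the other side of Myb (135 kb away), had 0 DMSO peaks.

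**Figure D1:**
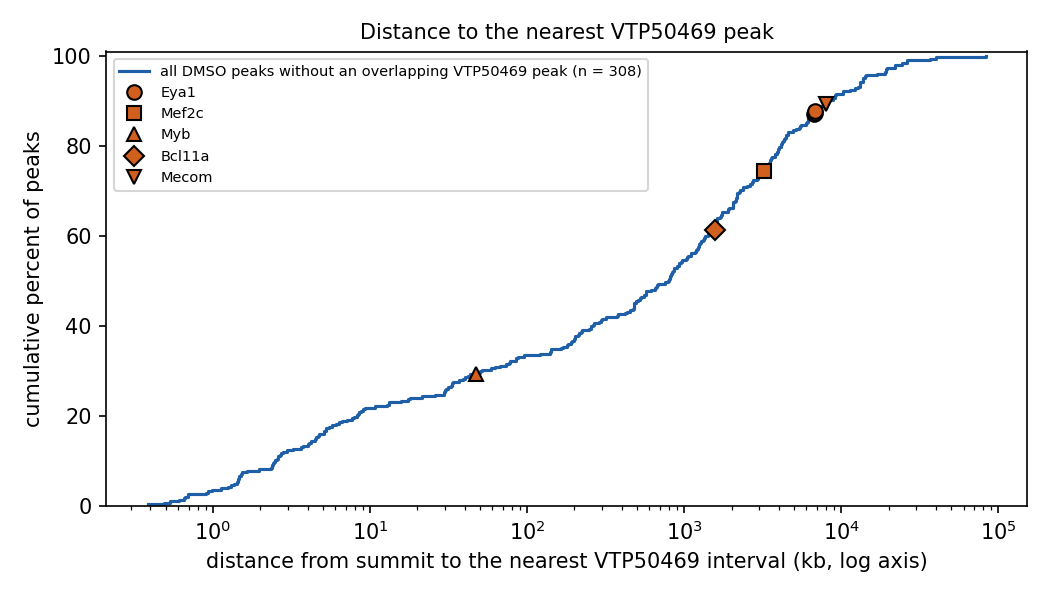
Distance from each summit to the nearest VTP50469 interval (x axis, kb, log axis) against the cumulative percent of the 308 DMSO peaks that overlap no VTP50469 peak (y axis). The Myb peak sits at 47.4 kb and the other 6 peaks sit at 1565 kb or more, in the upper part of the curve. Genes with a VTP50469 peak could not be chosen, so nothing is read from these places on the curve.

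The distance to the nearest VTP50469 interval set Myb apart from the other genes. The median over the 308 DMSO peaks without overlap was 798 kb, and 168 of them (54.5%) were over 500 kb away, as were 6 of the 7 peaks here. At 47.4 kb the Myb peak was farther than 29.2% of those peaks. The corresponding shares were 61.4% for Bcl11a, 74.4% for Mef2c, 87.0% to 87.7% for Eya1 and 89.3% for Mecom. Some of the 308 lay in genes that also held a VTP50469 peak, and such genes could not be chosen here. The Eya1 peaks also have the same nearest VTP50469 interval, so they are not separate cases. No difference between the 7 peaks and the 308 is therefore read from these distances. None of the 7 lay within 10 kb of a VTP50469 interval. This follows from the choice of genes with no VTP50469 peak in or within 10 kb of their spans.

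How far absence from the VTP50469 list goes with peak strength is shown by the rest of the DMSO list. Overall 308 of 613 DMSO peaks, or 50.2% (exact 95% interval 46.2 to 54.3%), overlapped no VTP50469 peak. Among the 374 with a summit inside a protein-coding gene the share was 57.5% (52.3 to 62.6%), and among the 271 of those within the strength range of the 7 peaks it was 67.9% (62.0 to 73.4%). Since the genes were chosen for having no VTP50469 peak, nothing is read from 7 of 7 against these shares. Of the 325 protein-coding genes with a DMSO peak, 138 (42.5%, 37.0 to 48.0%) had none in the VTP50469 list. Among the 41 genes with at least 3 DMSO peaks the share was 9.76% (2.72 to 23.1%), or 4 genes, named here after their values were seen: Foxp1 with 4 peaks, and Akap13, Strn and Eya1 with 3 each.

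**Figure D2:**
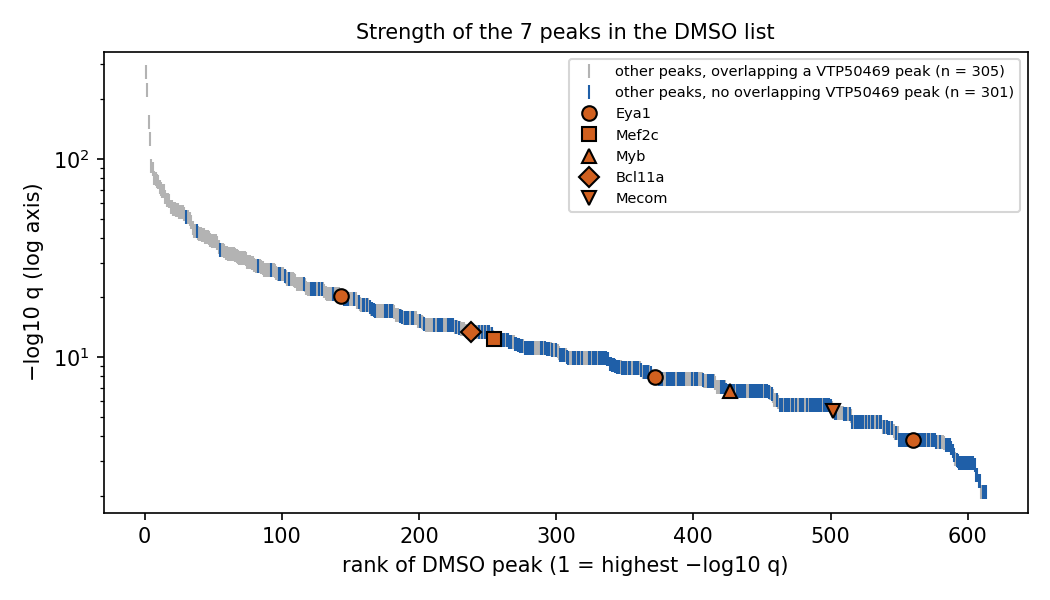
All 613 DMSO peaks by rank (x axis, 1 is the highest −log10 q) and −log10 q (y axis, log axis), with peaks that overlap a VTP50469 peak in grey and peaks that do not in blue. The strongest Eya1 peak is at rank 143, and the weakest, at rank 560, is near the end of the list.

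By −log10 q the 7 peaks were spread from rank 143 to rank 560, with Eya1 at 143, Bcl11a at 238, Mef2c at 255, the second Eya1 peak at 372, Myb at 427, Mecom at 502 and the third Eya1 peak at 560. In 4 equal bins by −log10 q, from weakest to strongest, 72.7%, 64.1%, 50.3% and 13.7% of DMSO peaks overlapped no VTP50469 peak, and the bins held 2, 2, 2 and 1 of the peaks. The strongest Eya1 peak was in the bin where absence from the VTP50469 list was least common, 21 of 153 peaks (8.70 to 20.2%). At rank 143 it lay near the weak edge of that bin, so the share of the bin includes many much stronger peaks. Eya1 was chosen for having no VTP50469 peak, and nothing is read from its place in this bin. The VTP50469 list also held peaks with a lower −log10 q, in its own library, than each member peak had in the DMSO list. It held 314 peaks with a lower −log10 q than the strongest Eya1 peak, 243 below Bcl11a, 236 below Mef2c and 169 below the second Eya1 peak. Below Myb there were 132, below Mecom 82 and below the weakest Eya1 peak 49. Whether −log10 q is on the same scale in the 2 lists, and why the 7 peaks were absent with VTP50469, was not tested.

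DMSO peaks of equal or nearly equal −log10 q had mixed outcomes. The strongest Eya1, the Mef2c and the Mecom peaks shared their −log10 q with 0 other DMSO peaks, so the peaks 1 rank stronger and 1 rank weaker could be named. Both rank neighbours of the strongest Eya1 peak overlapped a VTP50469 peak, one in Rap1a, a small GTPase gene, with a fold of 11.7, and one 2125 bp from Hoxa7 with a fold of 8.85. So did both neighbours of Mef2c, in Mctp1 (fold 6.24) and in the cohesin-loader gene Nipbl (8.99). Slightly further down the list outcomes were mixed. The peaks at ranks 145 and 257 overlapped no VTP50469 peak, and those at ranks 146 and 260 did. The genes here were chosen for absence, so nothing is read from single rank neighbours. Mecom (fold 5.50) stood between an overlapping peak 20154 bp from Gm17019 and a peak in the kinesin gene Kif11 without overlap. Their folds were 2.82 and 5.66, so the Gm17019 peak was near Mecom in −log10 q but not in fold. The other 4 peaks were tied. Of 15 DMSO peaks with the same −log10 q as the Bcl11a peak, 7 overlapped a VTP50469 peak and 8 did not. Of 28 tied with the Myb peak, 6 did and 22 did not. For the middle Eya1 peak the numbers were 2 and 1 of 3, and for the weakest they were 2 and 24 of 26.

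**Figure D3:**
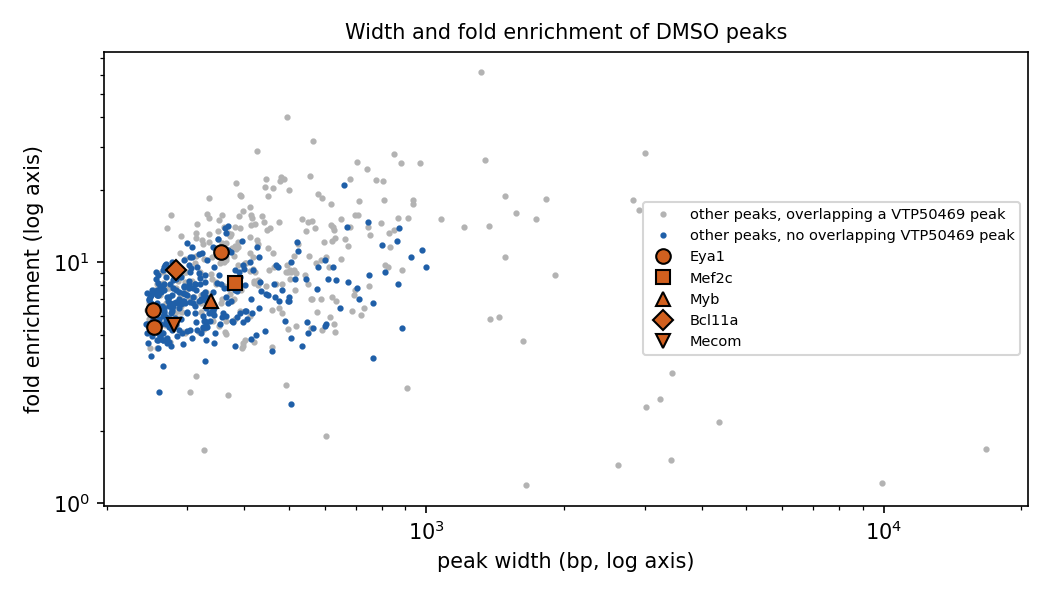
Width in bp (x axis, log axis) and fold enrichment (y axis, log axis) of all DMSO peaks, with peaks that overlap a VTP50469 peak in grey, peaks that do not in blue, and the 7 peaks marked by gene. The 7 peaks are 252 to 381 bp wide, and the median of the list is 350 bp.

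In width, 2 of the Eya1 peaks were close to the narrowest of the list: 4.08% and 4.89% of DMSO peaks were narrower than 252 and 253 bp. The share was 23.0% for Mecom, 24.1% for Bcl11a, 46.3% for Myb, 50.9% for the strongest Eya1 peak and 57.8% for Mef2c. None of the 4 genes with starts in the table had its peak within 2 kb of one. Of the 308 DMSO peaks inside genes whose starts are in the table, 24 (7.79%) were within 2 kb of a start of their own gene and 78 (25.3%) within 10 kb. The median distance was 37.8 kb, against 3.08, 5.22, 18.8 and 29.7 kb for Mecom, Mef2c, Bcl11a and Myb.

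Outside these genes, 5 of 6 progenitor regulators in the DMSO list were in the VTP50469 list too. The 5 genes here were chosen for having none, so the 6 are not set against them. Genome-wide, 138 of the 325 coding genes that carried a DMSO peak (42.5%) lacked one with VTP50469. With only 6 genes, of which Hoxa9 and Hoxa10 share peaks, no difference from that share is read. In a list of 37 progenitor regulators that includes the 5 genes, 11 had a DMSO peak and 5 a VTP50469 peak, beside 1.49% and 1.06% of all 21887 protein-coding genes. The 5 genes were chosen on the peak lists, and the 37 with earlier results of these data known. No enrichment is therefore read from these counts. A gene counted when a summit lay within 10 kb, so Hoxa9 and Hoxa10, which are neighbours, shared peaks. Of the other 32, 6 had a DMSO peak: Hoxa9, Hoxa10, Pbx3, Runx2 and Cdk6, which also had VTP50469 peaks, and the HOX cofactor gene Meis1, which did not. The single Meis1 peak had a fold of 7.05 and a −log10 q of 9.93, within the range of the 7. The strongest DMSO peaks in Pbx3 and Runx2 had folds of 28.4 and 26.5, above 11.0, the highest among the 5 genes. Of the 5 DMSO peaks counted for Hoxa9, 2 lay inside it. The strongest of the 5, with a fold of 28.8, was nearest to Hoxa3, with its summit 386 bp outside that span. Cdk6, a cell-cycle kinase gene, had a DMSO peak of fold 10.5, below the strongest Eya1 peak, and this Cdk6 peak overlapped a VTP50469 peak. Both DMSO peaks counted for Hoxa10 lay outside it, and the stronger, with a fold of 12.0 and no overlap, lay inside Hoxa9.

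Of 25 genes for relatives and partners of the 5 proteins, 2 (8.0%) had a DMSO peak, beside 1.49% of all protein-coding genes, and both had a VTP50469 peak as well. With only 2 genes, and with gene length not taken into account, no enrichment is read from these shares. Dach1, a corepressor of the network that EYA proteins act in, had 4 DMSO and 2 VTP50469 peaks. The highest DMSO −log10 q there went with a fold of 15.2, and 1 of the 4 was shared between the lists. Hdac9, a class IIa histone deacetylase that binds MEF2 factors, had 1 of each, overlapping, with folds of 6.00 and 5.89 in their own lists. The paralogs Eya2, Eya3, Eya4, Mef2a, Mef2b, Mef2d, Mybl1, Mybl2, Bcl11b and Prdm16, and the EYA partner genes Six2, Six4 and Six5, had 0 peaks in either list.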

How the data were processed

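Both narrowPeak lists were used, those of the DMSO and the VTP50469 pull-down. Tools in the submitters' processing notes are MACS2, bedtools, SAMtools 1.95, Picard 2.9.4, STAR 2.7.5a and bcl2fastq 2.20.0.422, with build mm10; what each did, its settings and the control are not stated in the labels used here. The deposited values are a fold (a ratio of library to background at the summit) and the −log10 p and −log10 q of each peak; the deposited score was not used. They carry no read totals, so depth is unknown from them directly.

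Peaks on the autosomes, X and Y were assigned by summit to RefSeq GRCm38.p6 spans with 10 kb flanks. Peaks were shared at 1 bp of overlap. Shares have exact Clopper-Pearson 95% intervals, which cover counting error only. The gene spans carry no exons, so exon, intron and UTR were not told apart. By rule, the genes named are the 5, listed genes with a peak, neighbouring genes, and the nearest genes of rank neighbours and of the nearest VTP50469 intervals. Rank neighbours tied in −log10 q are given as counts instead. Listed genes with 0 peaks, of which 1 is not reported here, and Foxp1, Akap13 and Strn are named outside that rule. The members and lists were chosen with earlier results of these data known. Gene assignment and fragment rebuilding were tested on simulated data. Scripts ran in Python 3.11.15 with scipy 1.17.1, pandas 2.3.3, numpy 2.4.6 and, for plots, matplotlib 3.10.9.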

Additional observations from a re-analysis of the deposited data

How the results depend on the processing

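Of 58 alternative values 48 stayed close to the reported one and 10 moved. The 7 DMSO peaks stayed 7 with flanks of 0 and 2 kb, at a fold of at least 5 and by interval overlap, became 8 with 50 kb and 6 at −log10 q of at least 5. At −log10 q of at least 10 they were 3, at Eya1, Mef2c and Bcl11a, since the Myb and Mecom peaks and 2 of the Eya1 peaks lie below it. VTP50469 peaks at the 5 genes were 1 with flanks of 50 kb and 200 kb, the one beyond Myb. All 7 were without overlap under every overlap rule tried. The genes were chosen for having no VTP50469 peak, which largely fixed this outcome, so it adds no support. The share of DMSO peaks without overlap was 45.8% with both lists at −log10 q of at least 10 and 39.8% with both held to 400 peaks, which keeps 4 of the 7. With a flank of 0 kb, 3 progenitor regulators had a VTP50469 peak. The other 4 moves were percentiles of single peaks by fold. Why values moved was not tested. No paired analysis was possible because with 1 library per treatment there are no pairs. Motifs under the peaks were not run, as no genome sequence was used here.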

Other observations

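The authors' fold and −log10 p allow the whole fragments at a summit to be rebuilt, assuming Poisson p-values, a pseudocount of 1 and a library scaled to its control, an approach chosen after the lists had been examined. Of 613 DMSO peaks 608 gave a count, as did 395 of 400 VTP50469 peaks, with the listed −log10 p matched within 0.002. The rebuilt DMSO counts were 83, 52 and 33 fragments at the Eya1 summits, 66 at Mef2c, 59 at Bcl11a, 44 at Mecom and 43 at Myb. The local background was at the genome level at Bcl11a, Myb and the weakest Eya1 summit, and 1.30 to 1.52 times that level at the other 4 summits.

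The fewest fragments at a listed peak on the genome background were 28 with DMSO and 26 with VTP50469. If the 2 lists share a control, which no source states, 25 to 30 VTP50469 fragments at these summits would have reached the lowest listed −log10 p of 5.85. After scaling for depth that is 38.3% of the DMSO count at the strongest Eya1 summit, 44.8% at Bcl11a, 48.1% at Mef2c, 61.0% at the middle Eya1 summit and 61.5% at Myb. At Mecom and at the weakest Eya1 summit it is 72.2% and 80.2%, the closest of the 7 to their DMSO counts. The width that a call also needs was not modelled.

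At the site between Ahi1 and Myb the rebuilt counts were 77 fragments with DMSO and 45 with VTP50469, both at the genome background. Scaled for depth by 1.06, a factor that again holds only if the 2 lists share a control, the ratio was 0.619. Its exact 95% interval of 0.418 to 0.905 covers counting error between 2 libraries only.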
